A study of Homo sapiens with 12 samples.

Results

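Fatty acids reach the acyl-CoA pool of a cell through membrane proteins and enzymes that attach coenzyme A. The 10 genes described here are the long-chain acyl-CoA synthetases ACSL1, ACSL3, ACSL4, ACSL5 and ACSL6, the fatty acid transport proteins SLC27A1, SLC27A2, SLC27A3 and SLC27A4, and the scavenger receptor CD36. They were chosen by symbol, with earlier results of these data known, and all 10 were found among the 19677 genes of the count tables. RNA was sequenced from CAOV3, an established human line labelled as epithelial high-grade serous ovarian cells of wild-type genotype, grown in medium with fetal bovine serum. The 12 libraries form 4 groups of 3: control (DMSO), ascites (10% ovarian cancer ascites, the abdominal fluid of this cancer, plus DMSO), bezafibrate (200 uM), and both agents together, called the combination. Treatments ran for 16 hours; the control labels carry no time. DMSO is named only for the groups without the drug, so the solvent and the drug cannot be told apart if the solvent differed. Neither the number of ascites sources nor the separation of the replicate cultures is stated, so p-values measure only the spread between these libraries, which may be technical.

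As background, the ACSL enzymes activate long-chain fatty acids to acyl-CoA, and the isozymes differ in location and preferred substrate. The SLC27A proteins, also called FATP, promote uptake and have acyl-CoA synthetase activity themselves, which traps the fatty acid inside the cell. Acyl-CoA is then oxidised in mitochondria and peroxisomes, esterified into lipids or hydrolysed. Bezafibrate belongs to the fibrates, drugs that activate the PPAR nuclear receptors, and genes of fatty acid uptake, activation and oxidation are well-known PPAR targets in liver and muscle.

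Total counts ranged from 11831093 to 18762759 per library, and 12470 genes had counts enough to be tested. Of the 10 genes 8 were tested; ACSL6 and CD36 had too few counts. The keratins marked the cells as epithelial, which is only part of the label. KRT8 averaged 3033 CPM (counts scaled by the TMM-adjusted library size) and KRT18 averaged 1797 CPM over the 12 libraries. Of the serous ovarian markers, PAX8 averaged 0.676 CPM, MSLN 0.393, FOLR1 0.189, WT1 0.0880 and MUC16 0.0598, so these stood under 1 CPM. Combination replicate 3 stood apart on the second principal component (9.88% of the variance) at -22.4, while the other 11 libraries lay between -4.37 and 9.84. For the 8 tested genes, changes and calls of the combination named below for the drug, for ascites and for the interaction were also computed without this library. For the lists of further genes read below, only the counts of called genes and FABP4 are given without it.

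Promoter sequences are shown first for the 2 genes with the largest drug responses, ACSL1 and ACSL5, and for ACSL4, a relative whose change did not pass the test. Each is the stretch of 250 bases before the first listed RefSeq start site (GRCh38.p14), written 5′ to 3′ on the gene's strand. The ACSL1 and ACSL5 windows lie inside the gene spans given below, so the outermost starts of these genes are not covered. Capitals mark the hexamer AGGTCA, the core of nuclear receptor binding sites, and the GC box GGGCGG, on either strand.
ACSL1, chr4:184825969-184826218, minus strand: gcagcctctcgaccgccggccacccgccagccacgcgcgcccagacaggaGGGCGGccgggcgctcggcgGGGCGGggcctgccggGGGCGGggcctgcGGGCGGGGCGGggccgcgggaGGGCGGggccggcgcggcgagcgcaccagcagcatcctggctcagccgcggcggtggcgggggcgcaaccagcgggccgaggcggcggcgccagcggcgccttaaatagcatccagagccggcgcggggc
ACSL5, chr10:112375018-112375267, plus strand: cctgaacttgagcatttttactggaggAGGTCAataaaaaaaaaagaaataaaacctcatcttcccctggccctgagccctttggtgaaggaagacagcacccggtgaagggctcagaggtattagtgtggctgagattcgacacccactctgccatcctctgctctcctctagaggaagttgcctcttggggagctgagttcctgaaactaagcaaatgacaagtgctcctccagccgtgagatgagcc
ACSL4, chrX:109733258-109733507, minus strand: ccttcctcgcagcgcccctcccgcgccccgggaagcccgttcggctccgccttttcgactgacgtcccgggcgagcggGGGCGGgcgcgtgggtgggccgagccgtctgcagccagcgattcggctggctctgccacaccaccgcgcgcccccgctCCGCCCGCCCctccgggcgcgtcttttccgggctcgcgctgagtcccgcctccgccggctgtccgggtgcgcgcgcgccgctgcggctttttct
The ACSL1 window is 83.6% G and C with 6 GC boxes, some of them overlapping, while the ACSL5 window is 50% G and C with 0 GC boxes and 1 AGGTCA that begins 223 bases before the start. The ACSL4 window is 77.2% G and C with 3 GC boxes and 0 AGGTCA. All 10 genes had at least 1 window in the table, 26 windows in all. AGGTCA on either strand was in 3 of these 26 windows and in 12.1% of all 35116 windows. Besides the ACSL5 window shown they belonged to ACSL6, in overlapping windows that hold the same site. The other ACSL5 window had 0 AGGTCA. Other ACSL1 windows were between 46.8% and 61.2% G and C, with 0 or 1 GC boxes each. Which start these cells used was not tested. The direct repeat AGGTCANAGGTCA, the classical PPAR element, was in 0 of the 26 and in 0.0171% of all windows. GGGCGG was in 11 of the 26 and in 42.6% of all. These matches describe letters in short windows only.

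In control cells, ACSL3 and SLC27A4 were the most abundant of the 10 genes per length. Levels between genes are compared here as CPM per kb of merged exon, with exon lengths from GENCODE 29. ACSL3, a synthetase of the endoplasmic reticulum and of lipid droplets, stood at 25.7 ± 1.39 CPM per kb (SD, n = 3), and SLC27A4, also called FATP4, at 21.5 ± 1.48. ACSL4, which prefers arachidonic acid and other polyunsaturated fatty acids, followed at 11.7 ± 0.808. SLC27A2, a very-long-chain acyl-CoA synthetase best known from liver and kidney, had 6.70 ± 0.467. These upper ranks did not overlap between neighbours in the control libraries. ACSL5, a synthetase known from intestine and mitochondria, had 3.89 ± 0.295 CPM per kb and ACSL1, the main isozyme of liver, fat and heart, 1.09 ± 0.126. SLC27A3 had 0.706 ± 0.110 and SLC27A1, the FATP of muscle and fat, 0.197 ± 0.0488. CD36, the fatty acid translocase of fat cells, macrophages, platelets and endothelium, had 0.0153 ± 0.00902, and ACSL6, an isozyme known from brain, had 0.00741 ± 0.00267. CD36 and ACSL6 were the only neighbours in this order whose control libraries overlapped.

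**Figure D1:**
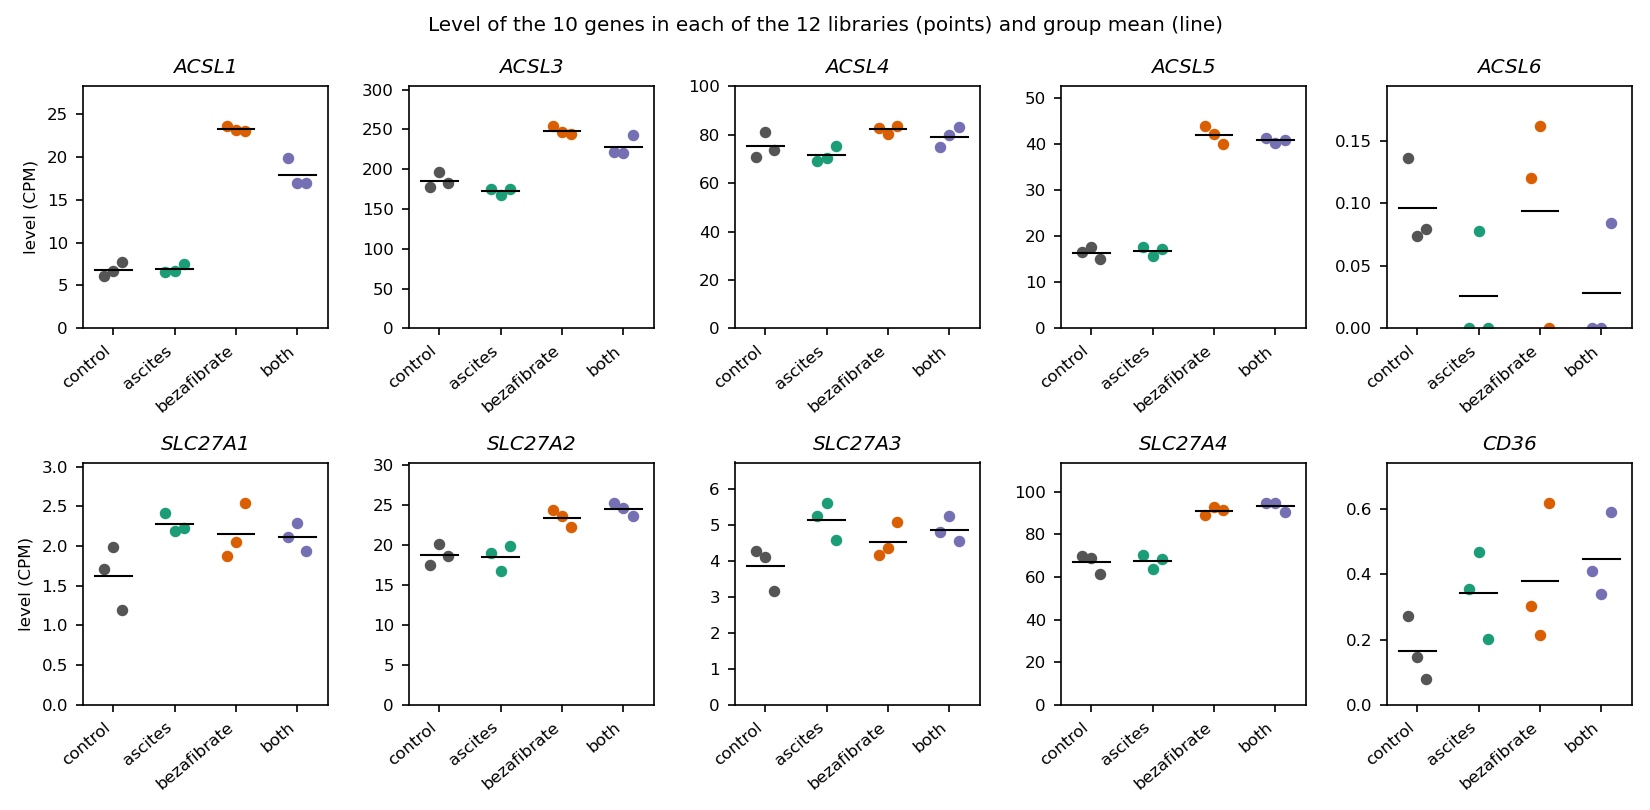
Level of each of the 10 genes in CPM (y axis, from 0, with its own scale in each panel) in the 3 libraries of each group (points) with the group mean (line); the x axis gives the group, and "both" is the combination. ACSL1 and ACSL5 show the widest gap between libraries with and without bezafibrate, while ACSL6 and CD36 stay under 1 CPM throughout.

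The comparison of bezafibrate with control asked what the drug changed without ascites. Of the 8 genes tested, 5 rose, 0 fell and 3 did not pass the test (edgeR's quasi-likelihood test, Benjamini-Hochberg adjusted p under 0.05 over all genes tested). The genes that rose were ACSL1, ACSL5, SLC27A4, ACSL3 and SLC27A2. Over all tested genes 10.1% were called higher and 7.55% lower in this contrast. The groups did not overlap for the same 5 genes, nor for 33.5% of all tested genes. The median log2 fold change was 0.40 over the 8 genes and -0.0037 over all tested genes. In a bulk library, more transcripts per cell and more cells that carry the transcript cannot be told apart.

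ACSL1 (ENSG00000151726.15, chromosome 4 from 184755595 to 184826594, GRCh38.p14) had the largest change. Its level was 6.14, 6.69 and 7.69 CPM in the control libraries and 23.5, 23.1 and 23.0 CPM with bezafibrate. The 3 drug libraries lay close together and all above the controls. The mean went from 6.84 ± 0.790 to 23.2 ± 0.269 CPM (SD, n = 3), a 3.41-fold rise with a log2 fold change of 1.77, an SE of 0.0998 and an adjusted p of 7.28e-17 by edgeR. By absolute log2 fold change ACSL1 ranked 47 among the 12470 tested genes.

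ACSL5 (ENSG00000197142.11, chromosome 10 from 112374116 to 112428376) had the second largest change of the 10. It stood at 16.6, 17.6 and 15.1 CPM in control and at 43.8, 42.2 and 39.9 CPM with bezafibrate. The lowest drug library was more than 2 times the highest control library. The rise was 2.55-fold, 1.35 ± 0.069 (SE) on the log2 scale, with an adjusted p of 3.34e-18 by edgeR, and it ranked 98 by absolute change. ZDHHC6, a gene on the opposite strand that shares 3.40% of the ACSL5 exon bases in GENCODE 29, stood at 34.2 CPM in control and rose by 0.18 on the log2 scale, with an adjusted p of 0.0303 by edgeR. Strandedness of the counting is not given in the sources used here, so reads from that stretch could not be assigned to either gene.

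ACSL3 (ENSG00000123983.15, chromosome 2 from 222861036 to 222944639) rose by less but from a higher level. Its libraries read 177.3, 196.9 and 183 CPM in control and 253.7, 246.1 and 244.7 CPM with the drug. The groups did not overlap, and the 1.34-fold rise was 0.42 ± 0.038 (SE) on the log2 scale, with an adjusted p of 3.67e-11 by edgeR. In CPM the added amount was greater for ACSL3 than for ACSL1 or ACSL5. ACSL4 (ENSG00000068366.21, chromosome X from 109641335 to 109733257) read 70.97, 81.0 and 73.8 CPM in control and 82.95, 80.3 and 83.4 CPM with bezafibrate. The groups overlapped through control replicate 2, and the log2 fold change of 0.13 (95% interval 0.03 to 0.23) had an edgeR adjusted p of 0.0757. It was called without control replicate 2, at 0.18 (adjusted p 0.0151), and in a fit of only these 2 groups with all 6 libraries kept, at 0.13 (adjusted p 0.0332).

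Among the transport proteins, SLC27A4 (ENSG00000167114.13, chromosome 9 from 128340527 to 128361470) rose from 69.9, 68.9 and 61.5 CPM to 88.9, 92.7 and 91.5 CPM. This is a 1.36-fold rise without overlap of the groups, with a log2 fold change of 0.44 ± 0.048 (SE) and an adjusted p of 2.44e-09 by edgeR. SLC27A2 (ENSG00000140284.11, chromosome 15 from 50182196 to 50236385) read 17.5, 20.1 and 18.6 CPM in control and 24.4, 23.6 and 22.2 CPM with the drug. Its groups did not overlap either, and the 1.25-fold rise was 0.32 ± 0.078 (SE) on the log2 scale, with an adjusted p of 0.00223 by edgeR. ATP8B4 shares 19.9% of the SLC27A2 exon bases on the opposite strand, but had only 37 counts over the 12 libraries.

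SLC27A1 (ENSG00000130304.17, chromosome 19 from 17468767 to 17506168) and SLC27A3 (ENSG00000143554.14, chromosome 1 from 153775407 to 153780157) were low, and neither passed the test. SLC27A1 read 1.70, 1.98 and 1.19 CPM in control and 1.87, 2.05 and 2.54 CPM with bezafibrate, on between 15 and 38 counts per library. Its log2 fold change was 0.38 with a 95% interval from -0.11 to 0.88, so a change as large as that of SLC27A4 was not detectable at this depth. SLC27A3 read 4.30, 4.11 and 3.17 CPM in control and 4.16, 4.36 and 5.08 CPM with the drug, a log2 fold change of 0.22 with an interval from -0.12 to 0.55. INTS3, which shares 8.32% of the SLC27A3 exon bases on the same strand, changed in value by -0.01 on the log2 scale, with an adjusted p of 0.936 by edgeR.

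CD36 (ENSG00000135218.19, chromosome 7 from 80602207 to 80679274) and ACSL6 (ENSG00000164398.15, chromosome 5 from 131949973 to 132012213) were close to the detection limit in all groups. CD36 had 4, 2 and 1 counts in the control libraries, 5, 6 and 3 with ascites, 5, 4 and 9 with bezafibrate, and 7, 4 and 7 in the combination. Summed over each group these are 7, 14, 18 and 18 counts, and the group ranges overlapped in CPM except between control and combination. In a fit with no filter on low counts, CD36 had a log2 fold change of 1.06 with the drug (edgeR adjusted p 0.446) and 1.33 in the combination against control (0.270). ACSL6 had between 0 and 3 counts per library, and 5 of the 12 libraries had 0, which allows up to between 0.175 and 0.254 CPM in those libraries, for counting error only. No response of either gene could be measured at this depth.

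The comparison of the combination with ascites asked what the drug changed when ascites was present, and shares no library with the comparison above. The same 5 genes rose, 0 fell and 3 did not pass the test, while 10.5% of all tested genes were called higher and 7.29% lower. ACSL1 went from 6.62, 6.64 and 7.47 CPM with ascites to 19.8, 16.9 and 16.9 CPM in the combination. The groups did not overlap, and combination replicate 1 was the highest of the 3. The rise was 2.60-fold, 1.38 ± 0.105 (SE) on the log2 scale, with an adjusted p of 3.13e-13 by edgeR.

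ACSL5 went from 17.6, 15.8 and 17.2 CPM to 41.4, 40.3 and 40.8 CPM, again with a wide gap between the groups. The rise was 2.42-fold, 1.27 ± 0.070 (SE) on the log2 scale, with an adjusted p of 3.36e-17 by edgeR. ACSL3 rose by 0.40 on the log2 scale (SE 0.039, edgeR adjusted p 1.63e-10), from a range of 168.2 to 174.6 CPM to one of 220.5 to 242.6 CPM. SLC27A4 rose by 0.46 (SE 0.049, edgeR adjusted p 1.22e-09), from 63.7 to 70.5 CPM with ascites to 90.6 to 94.7 CPM with both. SLC27A2 rose by 0.40 (SE 0.079, edgeR adjusted p 0.000194), from 16.7 to 19.9 CPM to 23.6 to 25.2 CPM. For these 3 genes too the groups did not overlap, against 30.5% of all tested genes whose groups did not overlap in this contrast.

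ACSL4 had a log2 fold change of 0.14 with ascites present (95% interval 0.03 to 0.24, edgeR adjusted p 0.0558). It was called in 4 of the 15 alternatives that tested against no change at the adjusted p of 0.05. These were the fits without ascites replicate 3 (edgeR adjusted p 0.0355), without combination replicate 1 (0.0165), with no filter on low counts (0.0467) and with the replicate number as a block (0.0479). Without combination replicate 3 ACSL4 was not called, at 0.10 (edgeR adjusted p 0.191). SLC27A1 had a log2 fold change of -0.11 and SLC27A3 of -0.08, neither called. The 5 genes that rose in both drug comparisons kept that call in every alternative that tested against no change at the adjusted p of 0.05. Against a fold change of 1.5, a stricter null, only ACSL1 and ACSL5 were called, in the drug comparisons without and with ascites and in the combination against control. The combination against control, which shares its libraries with the comparisons above, called the same 5 genes higher and none lower, where 10.3% of all tested genes were higher and 7.96% lower, with log2 fold changes from 0.30 for ACSL3 to 1.40 for ACSL1. Its groups did not overlap for 6 of the 8, those 5 and SLC27A3, and for 30.2% of all tested genes. Without combination replicate 3 the changes with ascites present were 1.42 for ACSL1, 1.27 for ACSL5, 0.48 for SLC27A4, 0.43 for SLC27A2 and 0.36 for ACSL3, and each was still called.

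**Figure D2:**
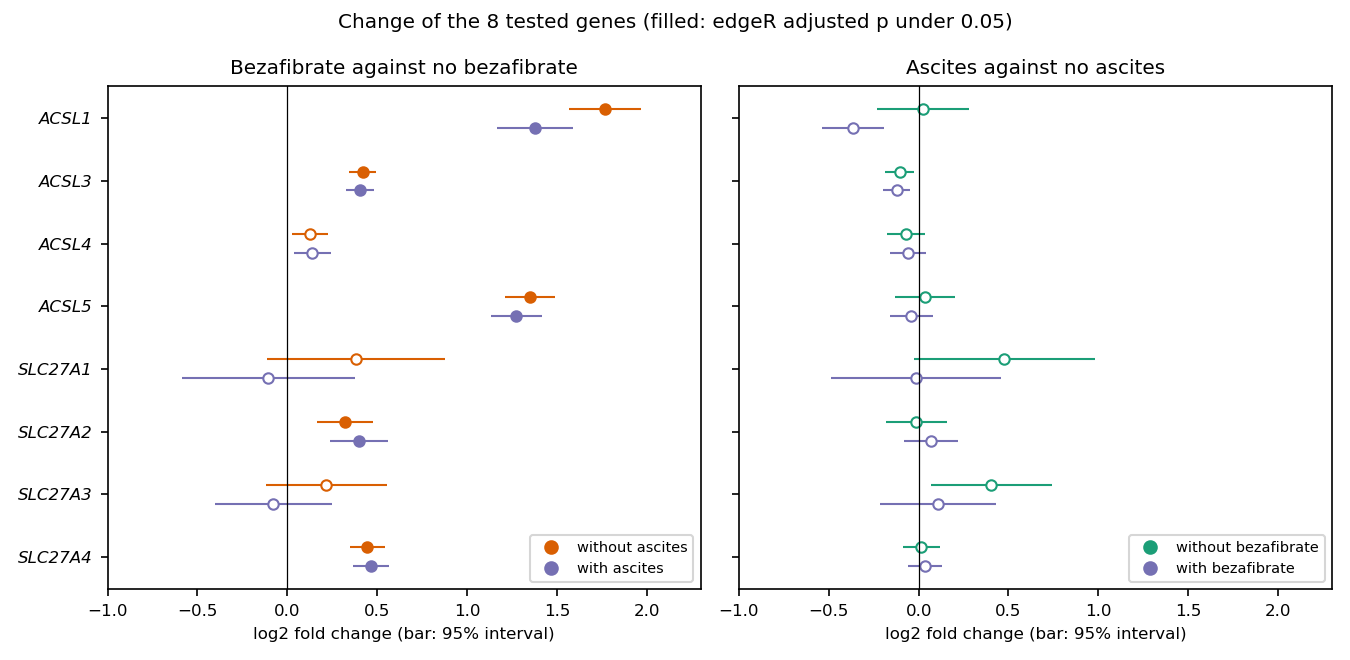
Log2 fold change (x axis) of the 8 tested genes (y axis) with its 95% interval; the left panel shows bezafibrate against no bezafibrate without and with ascites, the right panel ascites against no ascites without and with bezafibrate, and filled points have an edgeR adjusted p under 0.05. Filled points occur only in the left panel, at ACSL1, ACSL3, ACSL5, SLC27A2 and SLC27A4.

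The makeup of the ACSL transcripts differed between libraries with and without the drug; it is given here as a description. Per length, ACSL3 made up 60.5% ± 0.207 of the summed ACSL level in control cells, ACSL4 27.7% ± 0.349, ACSL5 9.18% ± 0.555 and ACSL1 2.57% ± 0.323 (SD, n = 3). With bezafibrate ACSL5 stood at 16.3% ± 0.514 and ACSL1 at 6.08% ± 0.0483, while ACSL4 stood at 21.1% ± 0.516 and ACSL3 at 56.5% ± 0.0309. The summed level went from 42.4 ± 2.39 to 60.7 ± 1.19 CPM per kb, and the lowest drug library, at 59.9, was above the highest control library, at 45.1.

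ACSL1 and ACSL5 together held between 11.5% and 12.1% of the sum in control, between 12.3% and 12.98% with ascites, between 21.9% and 22.7% with bezafibrate and between 20.96% and 23.4% in the combination. The libraries with the drug did not overlap those without it. ACSL3 was still the most abundant isozyme in every group. The order among the 10 genes changed at 1 place: ACSL5, at 9.91 ± 0.464 CPM per kb with bezafibrate, stood above SLC27A2, at 8.34 ± 0.391. In the combination they stood at 9.63 ± 0.137 and 8.73 ± 0.301 CPM per kb, again without overlap. These shares rest on GENCODE 29 exon lengths, and the annotation behind the counts is not given in the sources used here.

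**Figure D3:**
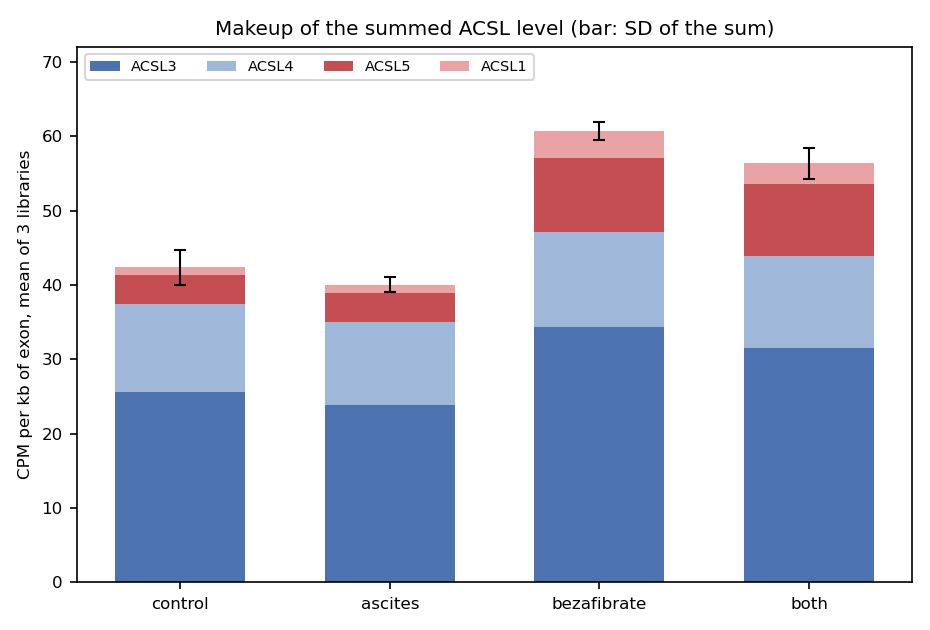
Summed level of ACSL3, ACSL4, ACSL5 and ACSL1 in CPM per kb of merged exon (y axis, mean of 3 libraries, from 0) in the 4 groups (x axis, "both" is the combination), stacked by gene; the error bar is the SD of the sum, and ACSL6 is too low to be drawn. The ACSL5 and ACSL1 segments together are 11.75% of the sum in control and 22.4% with bezafibrate.

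The comparison of ascites with control asked what the fluid changed in these genes without the drug. None of the 8 tested genes was called by edgeR or limma-voom. DESeq2 called none either, though it gave no adjusted p for SLC27A1 and SLC27A3. By edgeR 2 of the 8 had an unadjusted p under 0.05. Over all tested genes 0.0882% were called in either direction and 6.01% had an unadjusted p under 0.05. Those 2 were ACSL3 and SLC27A3, and they lay in opposite directions. ACSL3 read 177.3, 196.9 and 183 CPM in control and 174.6, 168.2 and 174.6 CPM with ascites, without overlap. Its log2 fold change was -0.11 (p 0.0110 before and 0.691 after adjustment, edgeR). SLC27A3 read 5.27, 5.62 and 4.58 CPM with ascites, all above the control libraries given above, with a log2 fold change of 0.40 (p 0.0199 before and 0.761 after adjustment, edgeR).

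SLC27A1 libraries with ascites, at 2.42, 2.19 and 2.22 CPM, also lay above the control libraries, with a log2 fold change of 0.48 and an interval from -0.03 to 0.98 (edgeR adjusted p 0.858). Groups did not overlap for these 3 of the 8 genes and for 12.7% of all tested genes in this contrast. The other genes had narrower intervals than SLC27A1 and SLC27A3. The 95% interval of the fold change with ascites lay between 0.853 and 1.21 for ACSL1, between 0.913 and 1.15 for ACSL5 and between 0.883 and 1.11 for SLC27A2. It lay between 0.879 and 0.982 for ACSL3 and between 0.941 and 1.09 for SLC27A4. For ACSL4, which was not called with the drug, it lay between 0.886 and 1.02.

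The comparison of the combination with bezafibrate asked what ascites changed in drug-treated cells. None of the 8 genes was called by edgeR or limma-voom. DESeq2 gave an adjusted p only for ACSL3, ACSL4 and SLC27A4 and called none of them, so it could not call ACSL1. By edgeR 2 of the 8, ACSL1 and ACSL3, had an unadjusted p under 0.05. Of all tested genes 0.0401% were called higher and 0.0882% lower, 0.128% in all, and 4.79% had an unadjusted p under 0.05. ACSL1 stood at 23.5, 23.1 and 23.0 CPM with the drug alone and at 19.8, 16.9 and 16.9 CPM with both. All 3 combination libraries were lower, as were 3 of 3 for ACSL3, and 9.27% of all tested genes had groups without overlap here. The log2 fold change of ACSL1 was -0.36 (SE 0.084, 95% interval -0.54 to -0.19, p 0.000112 before and 0.0698 after adjustment, edgeR).

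This value lay near the threshold. ACSL1 was called in 2 of the 14 alternatives that kept this threshold and the test against no change. These were the fits without combination replicate 1, at -0.46 (edgeR adjusted p 0.0202), and with no filter on low counts, at -0.37 (0.0158). Without combination replicate 3 ACSL1 was not called, at -0.32 (edgeR adjusted p 0.140). Over the 14 alternatives the adjusted p of ACSL1 ran from 0.0158 to 0.467. ACSL3 had a log2 fold change of -0.12 (p 0.00262 before and 0.526 after adjustment, edgeR), and read 222.1, 220.5 and 242.6 CPM in the combination against 244.7 to 253.7 CPM with the drug alone. Its highest combination value came from replicate 3, the library that stood apart, and without that library the change was -0.17 with an edgeR adjusted p of 0.00826. For ACSL5 the 95% interval of the fold change ran from 0.894 to 1.06.

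The interaction tested whether the drug response differed with and without ascites. No gene of the 8 was called (0 by edgeR, DESeq2 and limma-voom), 0 of all 12470 genes were called by edgeR (0%) against 1 by DESeq2 and 0 by limma-voom, and 445 (3.57%) had an unadjusted p under 0.05. ACSL1 was the 1 gene of the 8 with an unadjusted p under 0.05: its drug response was smaller with ascites by 0.39 on the log2 scale, an interaction of -0.39 with an interval from -0.70 to -0.08 (p 0.0141 before and 0.999 after adjustment, edgeR). The interaction was -0.08 for ACSL5, -0.02 for ACSL3, 0.02 for SLC27A4 and 0.08 for SLC27A2, each with an interval that included 0. For SLC27A4 the interval ran from -0.12 to 0.16. Without combination replicate 3 the interaction was -0.35 for ACSL1, -0.07 for ACSL5, -0.06 for ACSL3, 0.04 for SLC27A4 and 0.10 for SLC27A2, and none was called.

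Around these genes, 5 lists of 106 further genes followed the acyl-CoA pool from supply to use, of which 81 were tested. With bezafibrate 41 of the 81 were called, against 17.6% of all tested genes in either direction, 10.1% higher and 7.55% lower. The lists were chosen with earlier results of these data known, so this count is a description only. Among the other acyl-CoA synthetases, namely the remaining SLC27A genes and the ACSBG, ACSM, ACSS, ACSF and AACS enzymes, 2 of 8 tested rose and 0 fell. These were ACSM3, a medium-chain synthetase, at a log2 fold change of 1.23 (SE 0.140) and ACSS2, which activates acetate, at 0.34 (edgeR adjusted p 0.0130). The list's count was 1 without control replicate 2, without bezafibrate replicate 1 and without bezafibrate replicate 3. SLC27A5 had a log2 fold change of 0.11 and was not called, and SLC27A6 had 0 counts in all libraries.

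In the list of fatty acid uptake and carriage 10 of 20 tested genes rose and 2 fell. Over all tested genes 10.1% were called higher and 7.55% lower. The largest changes were those of FABP4 at 3.69 and VLDLR at 2.46, a carrier of fatty acids in the cytosol and a lipoprotein receptor, followed by the carriers FABP3 at 1.99 and FABP1 at 1.21. The 2 that fell were the caveolins CAV1 at -0.27 and CAV2 at -0.14. In the list of acyl-CoA oxidation 16 of 23 rose and 0 fell. ABCD2, a peroxisomal acyl-CoA transporter, changed by 1.36 (SE 0.308) on the log2 scale, at a mean of only 1.44 CPM over the 12 libraries. With ascites present its change was 0.42 and was not called (edgeR adjusted p 0.442). SLC25A20, the carnitine-acylcarnitine carrier, changed by 1.15 without ascites. CPT1A, the gate of mitochondrial entry, changed by 0.97 and ETFDH, which passes electrons from acyl-CoA dehydrogenation to ubiquinone, by 0.63. The median of this list was 0.39, close to the 0.40 over the 8 tested genes of the set described here. For the list of uptake and carriage the median was 0.14, and for the other acyl-CoA synthetases 0.09.

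In the list of acyl-CoA esterification 7 of 21 rose and 2 fell, with a median of 0.07. Again 10.1% of all tested genes were called higher and 7.55% lower. The largest changes were those of LPCAT3, which puts polyunsaturated acyl groups into phospholipids, at 0.95, AGPAT2 at 0.80, the cholesterol acyltransferase SOAT1 at 0.35 and GPAT3 at 0.34. The 2 that fell were the lysophospholipid acyltransferases MBOAT7 at -0.19 and LPCAT1 at -0.17. In the list of acyl-CoA hydrolysis 2 of 9 rose and 0 fell, with a median of 0.04; these were ACOT11 at 1.72 and THEM4 at 0.28. With ascites present, the drug comparison called 41 of the 81, 34 higher and 7 lower, against 17.8% of all tested genes (10.5% higher and 7.29% lower). These were not all the same genes. ACSS2, at 0.05, and ABCD2 were not called here, while CPT1C was called lower, at -0.86 (edgeR adjusted p 0.0341). CPT1C averaged only 1.46 CPM over all libraries, and its change without ascites was 0.39 and not called. In the interaction 0 of the 81 were called by edgeR, DESeq2 or limma-voom. So no list gene passed the test for a drug response that differed with ascites. Without combination replicate 3 the drug comparison with ascites present called 38 of 82, 33 higher and 5 lower. With ascites alone 0 of the 81 were called by edgeR, DESeq2 or limma-voom, and 8 had an unadjusted p under 0.05, against 6.01% of all tested genes. With ascites in drug-treated cells 1 of the 81 was called, FABP4, at 0.15 (edgeR adjusted p 0.0152); without combination replicate 3 it was not called, at 0.11 (0.0501), and 0 of 82 were.

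**Figure D4:**
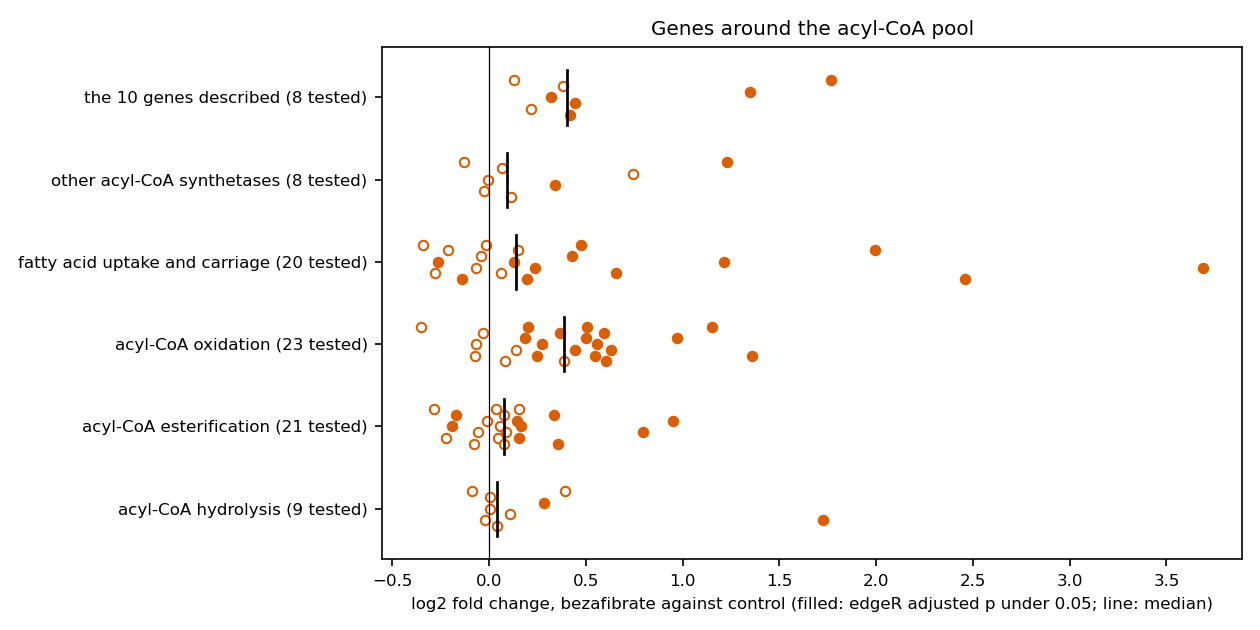
Log2 fold change of bezafibrate against control (x axis) for each tested gene of the set and of the 5 lists around the acyl-CoA pool (y axis, with the number tested); filled points have an edgeR adjusted p under 0.05 and the black line is the median. The medians are 0.40 for the set and 0.39 for acyl-CoA oxidation, and between 0.04 and 0.14 for the other 4 lists.

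By the root mean square difference of the log2 fold changes against control in the 3 treated groups (4 groups, 12 libraries), the genes nearest to ACSL1 among 11858 compared were KLF11, GPR160 and POU3F1, at distances of 0.12, 0.12 and 0.15. Each lay close to 0 with ascites and between 1.52 and 1.65 with bezafibrate. The nearest to ACSL5 were SPOCD1, SULT1B1 and FOXQ1, at 0.03, 0.07 and 0.08, with log2 fold changes between 1.25 and 1.39 with bezafibrate. For scale, PDK4 changed by 4.07 and ANGPTL4 by 3.60 with the drug, so ACSL1 and ACSL5 lay well below the strongest responders.

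Markers of other cells were read beside these results. Of 11 leukocyte markers 6 (PTPRC, CD3E, TYROBP, S100A8, S100A9 and MS4A1) had 0 counts in all libraries, as did PPBP, PF4 and GP9 of 7 platelet and red cell markers, and the upper limit from a 0 over the 6 ascites-exposed libraries is 0.0365 CPM. No gene of the 5 marker lists was called with ascites by edgeR; in the epithelial list 4 of 9 tested genes had an unadjusted p under 0.05, against 6.01% of all tested genes. With the drug, 10.1% of all tested genes were called higher and 7.55% lower. In that comparison the summed epithelial list went from between 6273 and 6403 CPM to between 6596 and 6931 CPM, and 5 of its 9 tested genes rose. The summed leukocyte list went from between 76.6 and 80.4 CPM to between 94.8 and 98.5 CPM, and 1 of its 4 tested genes, CD68, rose. The summed platelet and red cell list went from between 1.10 and 1.84 CPM to between 0.844 and 0.915 CPM, with none of 2 tested genes called. The summed fibroblast and mesothelial list went from between 192.8 and 197.8 CPM to between 167.9 and 178.6 CPM, with COL1A1, COL3A1 and LUM lower among 4 tested genes. The summed list of fat cell and endothelial markers, the cell types known for CD36, went from between 3.57 and 4.09 CPM to between 9.71 and 11.95 CPM; 1 of its 8 genes, the lipid droplet gene CIDEC, was tested and rose, and ADIPOQ had 0 counts. The part of these markers in the drug response of the synthetases was not tested.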

How the data were processed

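Each of the 12 libraries came with 1 table of gene counts in whole numbers, deposited by the authors. Trimmomatic 0.39, STAR 2.7.9a, RSEM 1.3.3, DESeq2 1.28.1 and the build GRCh38 are listed, without roles, per the submitters' processing notes; whether the deposited counts are RSEM estimates rounded to whole numbers, the annotation release and the strandedness are not given in the sources used here. RSEM-type estimates divide reads between overlapping or similar genes, which can move counts of low genes.

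Genes were kept by filterByExpr (minimum count 10, minimum total count 15) and scaled by TMM, in edgeR 4.0.16 under R 4.3.3. All 12 libraries were fitted with 1 mean per group (8 residual degrees of freedom, common biological coefficient of variation 3.06%) and tested with glmQLFit and glmQLFTest. Adjusted p-values are Benjamini-Hochberg over 12470 genes. SE was taken as the size of the log2 change over the root of its F statistic, and 95% intervals use the test's degrees of freedom. Replicates of a group differed by a chi-square per degree of freedom of 1.45 to 4.45, so none was a duplicate. The fit was tested on simulated data for bezafibrate against control (12394 genes): 95% of genes changed 2-fold and 98% of genes changed 4-fold were called.

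The 10 genes, the lists and the markers were chosen with earlier results of these data known. All 10 genes are named. In each list, up to 4 genes were named: those called with bezafibrate that had the largest absolute change and a mean of at least 1 CPM; SLC27A5, SLC27A6, the list genes that fell and genes that overlap the 10 were added after values were seen. Alternatives were other scalings, tests (DESeq2 1.42.0, limma-voom in limma 3.58.1), filters, thresholds, a fit of only the 2 groups compared, the replicate number as a block and each library left out; the lists without combination replicate 3 were added after seeing the data. Promoters are from RefSeq (GRCh38.p14). Protein sequences were not used here.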

Additional observations from a re-analysis of the deposited data

How the results depend on the processing

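Of 48 results (8 genes in 6 contrasts) 15 were called, and all 15 kept call and sign in every alternative that kept the adjusted p of 0.05 and the test against no change. No called value changed sign. Among the uncalled results 4 gained a call in at least 1 alternative, all of them for ACSL1, ACSL3 or ACSL4, and 8 changed sign in at least 1. DESeq2 gave no adjusted p for 7 values, all in the comparisons of ascites with no ascites, and these were left out. Tested against a fold change of 1.5, stricter by construction, 2 of the 10 genes were called in the comparison of bezafibrate with control, 2 in that of the combination with ascites and 2 in that of the combination with control, in place of 5 each; of the 5 lists, 1 gene of the other synthetases, 4 of uptake and carriage, 2 of oxidation, 2 of esterification and 1 of hydrolysis were called with the drug. At an adjusted p under 0.01 the other synthetases had 1. With only the 2 groups compared in the fit, 6 of the 10 genes were called for the drug without ascites (ACSL4 was added). With no filter on low counts 1 was called for the combination against bezafibrate, in place of 0. The cause was not tested. When 1 library was left out, that count ranged from 0 to 1, and the counts for the drug without and with ascites ranged from 5 to 6. The counts for ascites against control and for the interaction stayed at 0, and that for the combination over control stayed at 5.

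Same-numbered libraries of different groups did not deviate together: the correlation of their deviations from the group means lay between -0.135 and 0.061 over 18 pairs, and a library correlated best with its own number in 12 of 36 comparisons. With the replicate block 5 of the 10 genes were called for the drug without ascites, 6 for the drug with ascites (ACSL4 was added, at an adjusted p of 0.0479 by edgeR) and 5 in the combination over control. Depth limits ACSL6, CD36, SLC27A1 and SLC27A3, which had between 0 and 82 counts per library.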
